A study of Mus musculus with 6 samples.

Results

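The gene set described here holds 32 marker genes of the non-hepatocyte cells of liver: 16 of sinusoidal endothelium, 9 of hepatic stellate cells and 7 of bile duct cells. They were chosen by symbol among the 20107 genes measured, and all 32 were found there. The libraries came from whole livers of 6 male C57BL/6N mice (Envigo) aged 16 weeks, wild type and described as littermates. In the HFHC group 3 mice were given free access to a fructose-containing food rich in fat and calories and to a drink high in fructose, from 8 weeks of age for 8 weeks, and the 3 mice of the Chow group ate chow. The comparison of HFHC with Chow asks whether the regimen changed the expression of these genes. A lower level in a bulk sample can come from fewer cells of a type or from less RNA per cell. Levels are shares of all counts in a library, so more RNA from other cells can also lower them. These sources cannot be told apart here, and an equal level does not show equal cell numbers.

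Sinusoidal endothelial cells line the liver's capillaries, have open pores and clear waste molecules from blood through scavenger receptors. They also send signals to hepatocytes, such as BMP2, which drives the iron hormone hepcidin, and WNT2, which supports the zone around the central vein. Stellate cells lie between endothelium and hepatocytes, store vitamin A and become matrix-producing cells when activated by injury. Bile duct cells, or cholangiocytes, carry bile out of the liver and express simple-epithelium keratins.

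Of the 31 members that passed the filter on low counts, 1 was higher in HFHC and none was lower at an adjusted p under 0.05 (edgeR's quasi-likelihood test, Benjamini-Hochberg adjustment over all 14896 genes tested). Among all tested genes 3.38% were called higher and 3.30% lower, or 6.67% in either direction. The member called was Spp2, a secreted phosphoprotein made by hepatocytes, which the gene set holds as a bile duct marker. None of the 16 endothelial members was called, none had an unadjusted p under 0.05, and DESeq2 and limma-voom, with and without sample weights, called none. None of the 9 stellate members was called by edgeR, DESeq2 or either limma-voom fit, and 1, Hand2, had an unadjusted p under 0.05. The share of all tested genes with such a p was 22.2%. In 6 of the 31 members the ranges of the diets did not overlap, against 27.8% of all tested genes.

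The HFHC libraries held 30096409 to 30871297 counts and the Chow libraries 26767416 to 27339613, so raw counts of the diets are not on the same scale. Over all libraries 1 read stood for 0.0318 to 0.0379 CPM (counts per 1000000 counts of the library, with TMM-scaled library sizes). In a principal component analysis of all tested genes the first component separated the diets, and the second set Chow replicate 8 (-30.36) apart from the others (-3.58 to 11.94). Without that library the fit still called 0 endothelial and 0 stellate members, and Spp2 was no longer called.

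The stretches just upstream of the transcription starts of 4 members are shown, from endothelial genes and from the member that passed. Stab1 (chr14:31168642-31168891, minus strand), Flt1 (chr5:147726012-147726261, minus strand) and Eng (chr2:32646345-32646594, plus strand) are endothelial, and Spp2 (chr1:88406760-88406960, plus strand) is the hepatocyte gene. The sequences are from RefSeq on GRCm38.p6, written 5′ to 3′ on the strand of the gene. Capitals mark AGGAAG, a core of the sites bound by ETS factors, a family with central roles in endothelial gene expression, or its reverse complement. The endothelial genes shown are all among the 6 of 11 that held this motif, so the stretches do not show how common it is.
Stab1: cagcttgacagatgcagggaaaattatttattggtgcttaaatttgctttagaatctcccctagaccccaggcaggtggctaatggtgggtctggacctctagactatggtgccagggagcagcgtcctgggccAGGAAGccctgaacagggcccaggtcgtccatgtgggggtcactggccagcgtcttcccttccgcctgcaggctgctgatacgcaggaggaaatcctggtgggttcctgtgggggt
Flt1: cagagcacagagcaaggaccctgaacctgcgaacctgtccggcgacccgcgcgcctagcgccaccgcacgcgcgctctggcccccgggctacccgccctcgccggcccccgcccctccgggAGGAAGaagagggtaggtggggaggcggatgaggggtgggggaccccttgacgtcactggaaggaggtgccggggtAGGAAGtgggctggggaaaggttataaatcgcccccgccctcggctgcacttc
Eng: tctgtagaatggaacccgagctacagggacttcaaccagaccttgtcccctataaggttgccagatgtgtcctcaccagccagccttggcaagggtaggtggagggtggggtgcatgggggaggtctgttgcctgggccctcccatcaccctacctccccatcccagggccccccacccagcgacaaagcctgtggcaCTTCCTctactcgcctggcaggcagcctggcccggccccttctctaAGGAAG
Spp2: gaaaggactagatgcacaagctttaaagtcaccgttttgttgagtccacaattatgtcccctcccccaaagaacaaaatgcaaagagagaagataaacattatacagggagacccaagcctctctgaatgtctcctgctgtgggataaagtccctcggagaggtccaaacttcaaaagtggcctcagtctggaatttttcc

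A RefSeq promoter was found for 23 of the 32 members. In the 250 bases before the start, searched on both strands, AGGAAG was present in 6 of 11 endothelial members (Clec4g, Eng, Flt1, Stab1, Stab2 and Tie1), 2 of 8 stellate members and 2 of 4 bile duct members, against 29.5% of all 32851 promoters. Of 8 motifs searched, 3 others were versions of the ETS core. CGGAAG was in 2 of 11 endothelial members (13.6% of all promoters), CAGGAAG in 1 (10.8%) and GGGGAAG in 1 (8.55%). CAGGAAG holds AGGAAG whole, so each of its matches is also a match of AGGAAG. The HNF1 half-site GTTAAT was in none of the 11 (6.43%), the HNF4 half-site CAAAGT in 1 (12.6%), the nuclear receptor half-site AGGTCA in 2 (14.0%) and the TATA box TATAAA in 2 (12.4%). The printed stretch of Spp2 has 201 bases, against 250 in the other 3, since the measured gene starts before the RefSeq start, and AGGAAG was found in it 0 times. These matches describe letters in a window and were not tested against the expression data.

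Per kilobase of exon, the most abundant endothelial member was Clec4g, a C-type lectin of sinusoidal endothelium, at 17.0 CPM per kilobase as a mean over the 6 libraries. Eng, the TGF-beta co-receptor endoglin, followed at 10.7 and Oit3, a secreted zona pellucida-domain protein, at 8.79. The lowest endothelial level was that of Flt1 (1.01). Among stellate members Ecm1, a matrix protein also made by hepatocytes, stood at 27.2 and the collectin gene Colec11 at 14.8, while the other 7 lay between 0.461 (Pdgfra) and 2.34 (Reln). Spp2 stood at 81.0 CPM per kilobase, and the other 6 bile duct members lay between 0.0744 (Krt7) and 0.822 (Sox9). The level of Spp2 thus stood apart from those of the genes it was grouped with.

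**Figure D1:**
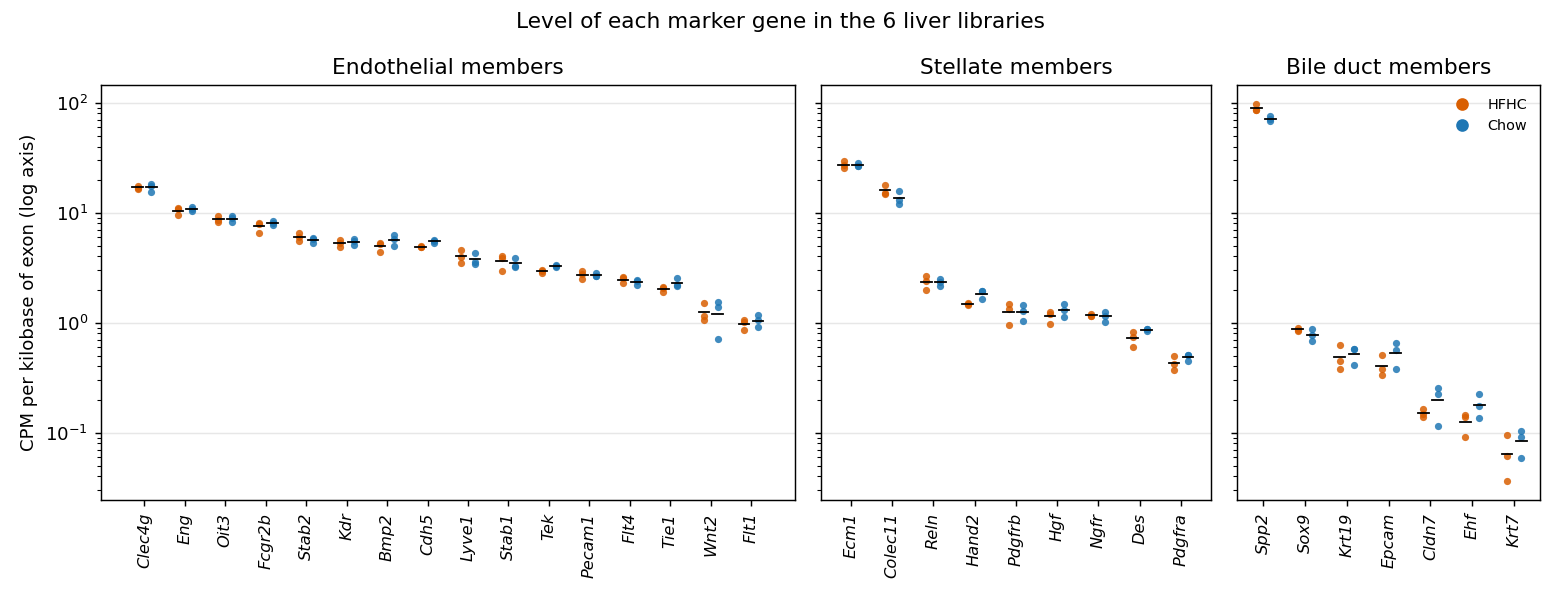
Level of each of the 32 marker genes, as CPM per kilobase of exon on a log axis, with 1 point per library and a black line at the mean of each diet (n = 3). Spp2 lies at 68.4 to 97.9 CPM per kilobase, while the other bile duct members lie at or below 0.900.

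The scavenger receptors of sinusoidal endothelium stood at similar levels in both diets. Stab2, which clears hyaluronan, stood at 53.1, 57.1 and 48.4 CPM in HFHC replicates 1, 2 and 3 and at 46.0, 51.0 and 51.1 CPM in Chow replicates 7, 8 and 9. The ranges overlapped, and the log2 fold change of HFHC over Chow was 0.10 ± 0.09 (SE; 95% interval -0.10 to 0.29, edgeR adjusted p = 0.569). Its relative Stab1 stood at 41.5, 39.7 and 30.4 CPM in HFHC and at 33.7, 40.0 and 33.0 CPM in Chow. HFHC replicate 3 held the lowest and HFHC replicate 1 the highest of the 6 values, and the log2 fold change was 0.06 ± 0.13. Fcgr2b, the Fc receptor that takes up immune complexes, stood at 47.1, 37.5 and 46.0 CPM in HFHC and at 46.7, 48.5 and 45.0 CPM in Chow. HFHC replicate 2 lay below the other 5 libraries (-0.10 ± 0.10). Lyve1, a hyaluronan receptor shared with lymphatic vessels (0.09 ± 0.14), and Clec4g (-0.01 ± 0.08) overlapped between diets as well.

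The 3 VEGF receptor genes overlapped between diets. Kdr, the main signalling receptor for VEGF-A, stood at 50.8, 47.6 and 44.0 CPM in HFHC and at 49.6, 52.2 and 45.9 CPM in Chow, a log2 fold change of -0.05 ± 0.09. Flt1, the decoy-like receptor, gave -0.10 ± 0.12 and Flt4, the receptor for VEGF-C and VEGF-D, 0.08 ± 0.09. Eng stood at 44.3, 43.9 and 39.0 CPM in HFHC and at 44.2, 46.1 and 42.2 CPM in Chow (-0.06 ± 0.08).

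The endothelial members with all HFHC libraries below all Chow libraries were Cdh5, Tek and Tie1, and none of them passed. Cdh5, the cadherin of endothelial junctions, stood at 20.6, 20.7 and 20.8 CPM in HFHC and at 22.3, 23.4 and 23.7 CPM in Chow. Its log2 fold change of -0.16 ± 0.08 (95% interval -0.33 to 0.01) had an edgeR adjusted p of 0.262. Tek, the angiopoietin receptor, stood at 14.2, 13.8 and 13.4 CPM in HFHC and at 15.7, 15.3 and 15.2 CPM in Chow (-0.15 ± 0.08, edgeR adjusted p = 0.323). Tie1, its partner receptor, ranged from 9.39 to 10.3 CPM in HFHC and from 10.5 to 12.6 CPM in Chow (-0.18 ± 0.11, edgeR adjusted p = 0.354). Pecam1, a junction protein of all endothelium, gave 0.00 ± 0.10.

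Of the genes for secreted signals, Bmp2 stood at 18.6, 15.6 and 18.8 CPM in HFHC and at 20.6, 17.6 and 22.4 CPM in Chow, with overlapping ranges and a log2 fold change of -0.19 ± 0.12 (edgeR adjusted p = 0.392). Wnt2 stood at 3.37, 2.40 and 2.58 CPM in HFHC and at 3.11, 1.60 and 3.47 CPM in Chow. The value of Chow replicate 8 was the lowest of the 6, and the log2 fold change of 0.03 ± 0.27 became -0.23 without that library (edgeR adjusted p = 0.545). Oit3 gave -0.02 ± 0.09.

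The 95% interval of the fold change lay inside a 1.5-fold difference in either direction in 15 of the 16 endothelial members. Wnt2 was the exception, with an interval from 0.668-fold to 1.57-fold. The median log2 fold change of the 16 members was -0.04, beside -0.003 over all tested genes. Summed over the 16 members the level was 417 ± 20.2 CPM (SD, n = 3) in HFHC and 426 ± 8.26 CPM in Chow, and the ranges overlapped.

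**Figure D2:**
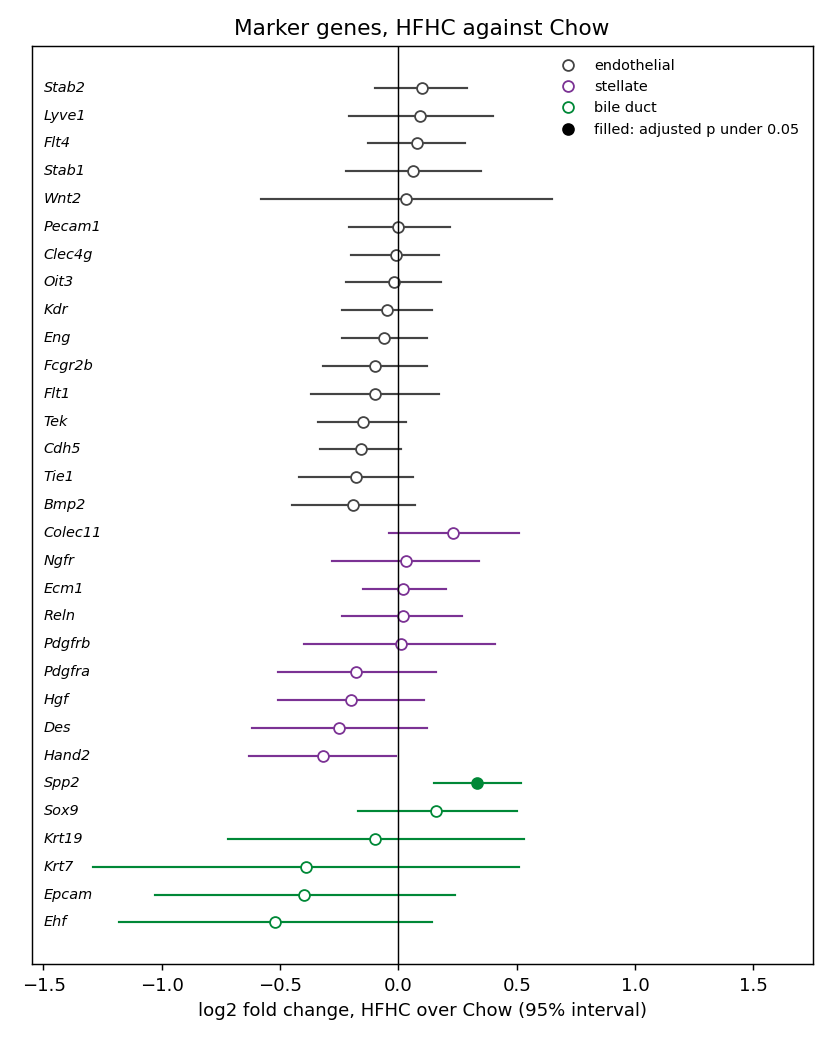
Log2 fold change of HFHC over Chow for the 31 tested members (points) with the 95% interval from edgeR (lines), coloured by cell type. The filled point is Spp2, the member with an adjusted p under 0.05, and the intervals of Ehf, Epcam and Krt7 extend below -1.

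Libraries of one diet differed from one another in many members, and whether this came from the livers or the libraries was not tested. HFHC replicate 3 held the lowest of the 6 values in 14 of the 32 members, among them 7 endothelial and 6 stellate genes. Among the 11 endothelial members with at least 4000 exonic bases it was the lowest HFHC library in 9, and among the 5 shorter ones in 1. The median level of the 11 long genes in that library was -0.13 on the log2 scale relative to the mean of the 6 libraries, while in Chow replicate 8 it was 0.10. After adjustment for GC content and transcript length, HFHC replicate 3 was the lowest HFHC library in 4 of the 11 long and 2 of the 5 short members. Stellate members were lowest in HFHC replicate 3 both above 4000 exonic bases (Reln, Pdgfra and Pdgfrb) and below (Des, Ecm1 and Hand2). Hgf, Colec11 and Ngfr were not, and the stellate median in that library was -0.19. The bound of 4000 bases was set after these values were seen. No test was made, and no share over all tested genes is given.

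**Figure D3:**
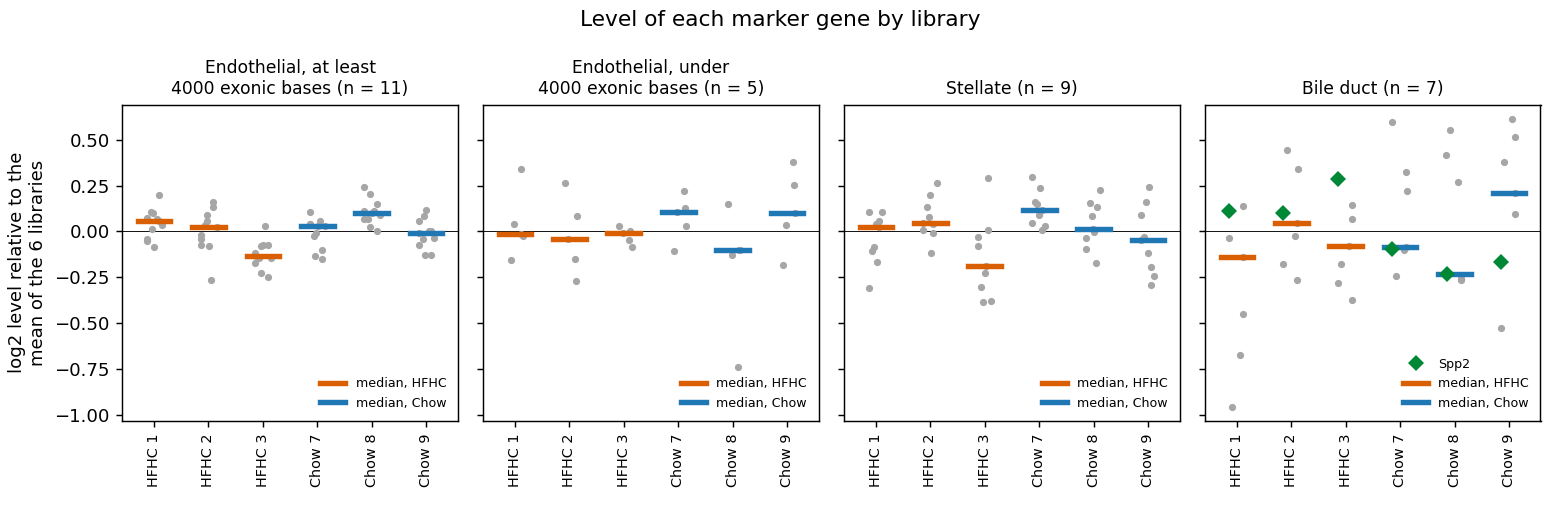
Level of each member in each library, as log2 relative to the mean of the 6 libraries (grey points, 1 per gene), with the median of each panel as a coloured bar and Spp2 as a green diamond. The median of the 11 long endothelial genes is lowest in HFHC replicate 3 (-0.13), and Spp2 is above 0 in the 3 HFHC libraries and below 0 in the 3 Chow libraries.

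Stellate cell markers did not pass either. Ecm1 stood at 73.9, 69.0 and 64.9 CPM in HFHC and at 70.9, 66.9 and 66.4 CPM in Chow, with overlapping ranges and a log2 fold change of 0.02 ± 0.08 (95% interval -0.15 to 0.20). Reln, which encodes the secreted glycoprotein reelin, stood at 56.7, 63.3 and 47.2 CPM in HFHC and at 58.9, 55.7 and 50.9 CPM in Chow (0.02 ± 0.11). Colec11 stood at 24.2, 24.6 and 29.2 CPM in HFHC and at 25.8, 21.1 and 19.5 CPM in Chow, where Chow replicate 7 lay above 2 of the HFHC livers (0.23 ± 0.12, edgeR adjusted p = 0.309).

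Hand2, a transcription factor of quiescent stellate cells, had the smallest p of the 9. It stood at 3.44, 3.55 and 3.39 CPM in HFHC and at 4.55, 3.84 and 4.56 CPM in Chow, so that every HFHC liver was lower. The log2 fold change was -0.32 ± 0.14 (95% interval -0.63 to -0.01) and did not pass (edgeR adjusted p = 0.209). An antisense gene, Hand2os1, covers 19.6% of its exonic bases, and the use of strand in counting is not given in the sources used here. Des, the muscle-type filament desmin, stood at 2.77, 3.11 and 2.25 CPM in HFHC and at 3.26, 3.12 and 3.28 CPM in Chow, values that did not overlap by the narrow gap between 3.11 and 3.12 (-0.25 ± 0.17, edgeR adjusted p = 0.428).

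The growth factor receptors of stellate cells and the factor they secrete overlapped between diets. Pdgfrb, through which PDGF drives stellate proliferation, ranged from 5.23 to 8.17 CPM in HFHC and from 5.73 to 7.94 CPM in Chow (0.01 ± 0.18). Pdgfra gave -0.18 ± 0.15, the neurotrophin receptor gene Ngfr 0.03 ± 0.14, and Hgf, the hepatocyte growth factor, -0.20 ± 0.14. The intervals lay inside a 1.5-fold difference in 7 of the 9 members and inside 2-fold in all 9. The median log2 fold change was 0.01, and the summed level was 181 ± 11.0 CPM in HFHC and 178 ± 11.4 CPM in Chow.

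Spp2 is a protein-coding gene on the plus strand (mm10 chromosome 1, 88406961 to 88426438). It stood at 86.1, 85.6 and 97.1 CPM in HFHC and at 74.5, 67.9 and 70.9 CPM in Chow, so each HFHC liver was above each Chow liver. It rose by 0.33 ± 0.08 on the log2 scale (95% interval 0.15 to 0.52, edgeR adjusted p = 0.0444), or 1.26-fold. It did not pass in any of the 6 leave-one-out fits (edgeR adjusted p from 0.0750 to 0.131), nor after adjustment for GC content and length (0.25, edgeR adjusted p = 0.0547). Of 25 hepatocyte markers, 2 were called higher, Spp2 and the apolipoprotein gene Apoc3 (0.52 ± 0.10), and 2 lower, the urea cycle gene Cps1 (-0.75 ± 0.12) and the tyrosine aminotransferase gene Tat (812 ± 32.9 CPM in HFHC, 1630 ± 406 CPM in Chow). Apoc3 did not pass without HFHC replicate 1, Chow replicate 7 or Chow replicate 9 (edgeR adjusted p from 0.0505 to 0.0710). Of the 25 markers, 14 had an unadjusted p under 0.05. Over all tested genes 22.2% had such a p, and 6.67% were called in either direction. Their median was -0.14, and their summed level ranged from 126000 to 132000 CPM in HFHC and from 120000 to 143000 CPM in Chow. The part of hepatocyte RNA in the change of Spp2 was not tested.

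None of the other tested bile duct members passed, and apart from Sox9 they rested on few reads. Epcam, the epithelial adhesion molecule, stood at 0.732, 0.833 and 1.11 CPM in HFHC and at 1.25, 0.834 and 1.43 CPM in Chow (-0.40 ± 0.28, edgeR adjusted p = 0.462). Krt19, a keratin that defines bile ducts, stood at 0.827, 1.15 and 0.704 CPM in HFHC and at 1.06, 0.762 and 1.06 CPM in Chow (-0.10 ± 0.28). Krt7, its usual partner in ducts, varied 2.85-fold between the lowest and the highest library, both numbers resting on few reads: 42 counts in all HFHC libraries and 48 in all Chow libraries (-0.39 ± 0.40). Sox9, the transcription factor of duct and progenitor cells, stood at 3.72, 3.49 and 3.55 CPM in HFHC and at 3.19, 2.83 and 3.62 CPM in Chow (0.16 ± 0.15).

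Ehf, an epithelial ETS factor, had 64 counts in HFHC and 80 in Chow, summed over libraries, with a log2 fold change of -0.52 ± 0.29 (95% interval -1.18 to 0.14). Cldn7, a tight junction gene, did not pass the filter, with 10, 9 and 8 counts in HFHC and 13, 12 and 6 in Chow. Of the 6 tested members, 3 had intervals that reached past a 2-fold difference (Ehf, Epcam and Krt7), and the intervals of Krt19, Sox9 and Spp2 lay inside it. Spp2 made up 91.9% of the summed level of the 7 genes, which was 96.4 ± 6.54 CPM in HFHC and 78.4 ± 3.66 CPM in Chow. Without Spp2 the sums were 6.81 ± 0.438 and 7.32 ± 0.837 CPM, and the ranges overlapped. The median log2 fold change of the 6 tested members was -0.24.

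The ligands and partners of the endothelial receptors were described from lists of pathway genes. Over all tested genes 3.38% were called higher and 3.30% lower. Among 9 tested VEGF ligands and receptors 1 rose and 1 fell. Nrp1, the VEGF co-receptor neuropilin, stood at 71.8, 76.4 and 77.7 CPM in HFHC and at 58.8, 59.7 and 44.5 CPM in Chow and rose by 0.47 ± 0.11 (edgeR adjusted p = 0.0407). Vegfd, a ligand of Flt4, stood at 0.636, 0.801 and 0.570 CPM in HFHC and at 1.71, 1.38 and 1.70 CPM in Chow. It fell by 1.24 ± 0.24 on the log2 scale (edgeR adjusted p = 0.0172). The values of Vegfd rest on few reads, since 1 read stood for 0.0318 to 0.0379 CPM. The main endothelial ligand gene Vegfa gave 0.10 (edgeR adjusted p = 0.587). In leave-one-out fits Nrp1 passed only without Chow replicate 8, and Vegfd only without HFHC replicate 2 or Chow replicate 8.

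None of 6 tested angiopoietin and Tie genes passed in edgeR, DESeq2 or either limma-voom fit, and none had an unadjusted p under 0.05, with Tek the gene of smallest p. Of 23 BMP and endoglin genes none was called by edgeR, with 1 at an unadjusted p under 0.05, the BMP receptor gene Bmpr2 (-0.32 ± 0.09, edgeR adjusted p = 0.0581). DESeq2 and weighted limma-voom called Bmpr2, and unweighted limma-voom called none. After adjustment for GC content and length the log2 fold change of Bmpr2 was -0.03 (edgeR adjusted p = 0.871). In the list of endothelial Wnt signalling, 1 of 19 fell: Lgr4, a receptor for R-spondins, from 85.9 ± 6.01 to 62.7 ± 3.61 CPM (-0.45 ± 0.08, edgeR adjusted p = 0.0152). It did not pass without HFHC replicate 1, Chow replicate 7 or Chow replicate 9. The medians of these 3 lists were -0.15, -0.04 and -0.11. The share of all tested genes called in either direction was 6.67%.

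Partners of the stellate members gave a few calls, beside 6.67% of all tested genes called in either direction. Pdgfc, a ligand of Pdgfra, fell by 0.82 ± 0.19 on the log2 scale from 6.76 ± 1.30 to 3.81 ± 0.766 CPM (edgeR adjusted p = 0.0355), as 1 of 7 tested PDGF genes. In the HGF list 1 of 9 rose, Hgfac, a liver protease that activates HGF (0.55 ± 0.10, edgeR adjusted p = 0.0133), and 1 fell, the heparan sulfate proteoglycan gene Sdc1 (-0.42 ± 0.10, edgeR adjusted p = 0.0373). In leave-one-out fits Pdgfc and Sdc1 failed in 5 and Hgfac failed in 3 (without HFHC replicate 1, Chow replicate 7 or Chow replicate 9).

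Further markers of the same cells were counted in the same fit. None of 29 other endothelial markers was called by edgeR, DESeq2 or unweighted limma-voom, with 3 at an unadjusted p under 0.05. The smallest p was that of Nr2f2, a venous transcription factor (-0.28 ± 0.08, edgeR adjusted p = 0.0637), which weighted limma-voom called. None of 18 other stellate markers was called by any of the 4 tools, with 3 at an unadjusted p under 0.05. The medians were -0.01 and 0.09, and of the 29 endothelial genes 14 had a log2 fold change above 0 and 15 below. Their summed level was 555 to 596 CPM in HFHC and 604 to 639 CPM in Chow, so each HFHC library was lower. The most abundant genes weigh most in a sum, and this difference was not tested. The sums of the other stellate markers overlapped, at 291 to 297 CPM in HFHC and 274 to 329 CPM in Chow.

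Of 19 other bile duct markers 3 fell and none rose, beside 3.30% of all tested genes called lower and 3.38% called higher. The median log2 fold change of the 19 was -0.15, with 13 below 0 and 6 above. Cdh1, the epithelial cadherin that hepatocytes also express, stood at 36.1, 28.8 and 29.5 CPM in HFHC and at 53.0, 56.9 and 46.4 CPM in Chow and fell by 0.73 ± 0.11 on the log2 scale (edgeR adjusted p = 0.00658) and also passed in all 6 leave-one-out fits. Alcam, an adhesion molecule (-0.33 ± 0.08, edgeR adjusted p = 0.0393), and Pkhd1, the fibrocystin gene (-0.47 ± 0.12, edgeR adjusted p = 0.0495), failed in all 6 such fits and after adjustment for GC content and length (edgeR adjusted p = 0.127 and 0.297). Of 14 Notch and YAP genes Hes1, a Notch target, rose (1.11 ± 0.22, edgeR adjusted p = 0.0204), and the kinase gene Lats1 (-0.34 ± 0.07) and the YAP partner Tead1 (-0.76 ± 0.18) fell. Hes1 was also the 1 call among 16 tested periportal and arterial endothelial genes, beside 6.67% of all tested genes called in either direction. Hes1 did not pass without HFHC replicate 1, HFHC replicate 2 or Chow replicate 9. Lats1 failed in 4 and Tead1 in 5 leave-one-out fits, and both failed after adjustment for GC content and length (edgeR adjusted p = 0.140 and 0.0549).

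**Figure D4:**
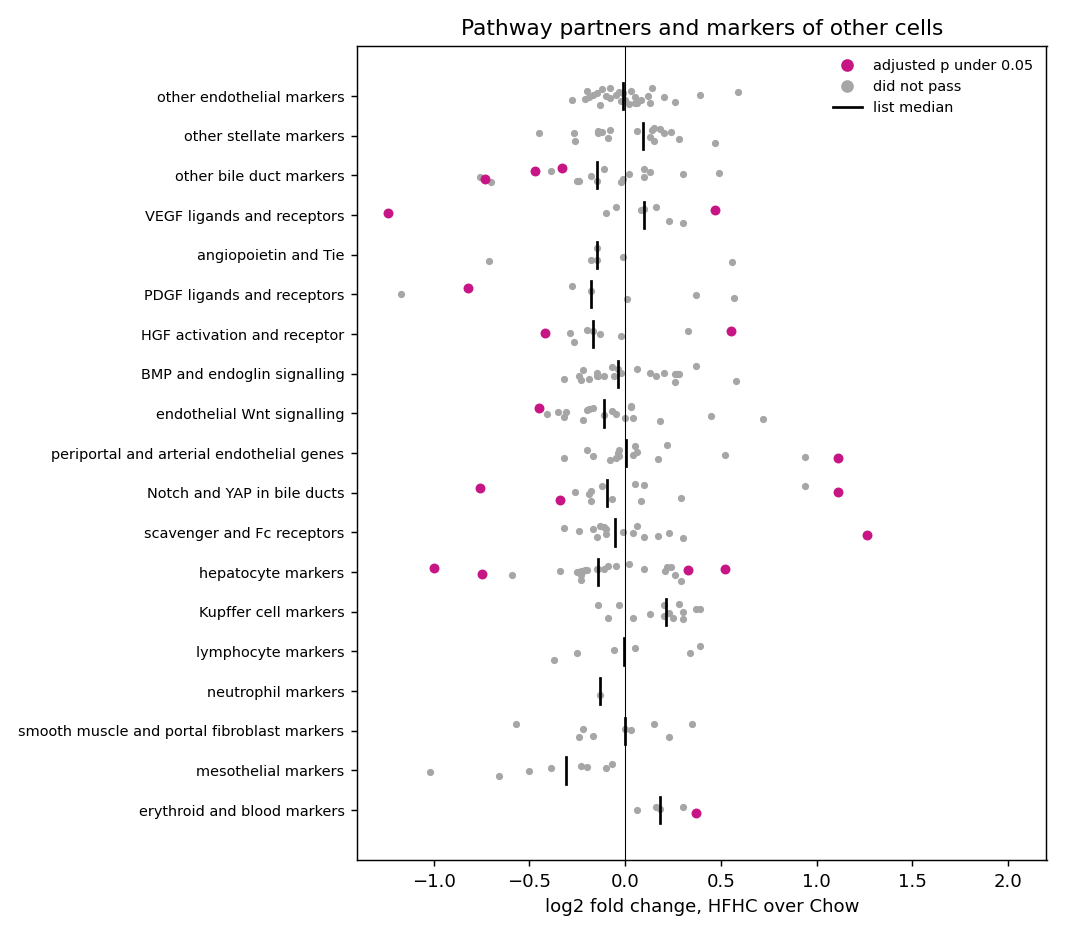
Log2 fold change of HFHC over Chow for each tested gene of the further lists (points), with the list median as a black bar. Magenta points passed an adjusted p of 0.05, and the called point farthest to the left is Vegfd (-1.24).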

How the data were processed

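Per the labels, RNA from 6 livers was extracted with miRNeasy kits, and rRNA-depleted stranded total RNA libraries were sequenced on a NextSeq500 as read pairs of 75 bases each. Per the submitters' processing notes, STAR 2.7.3a aligned reads to mm10 and Partek 9 counted them. The sources used here do not give the counting settings, strand use or annotation. Values deposited by the authors are estimated counts (expected counts) per gene, not normalized, of which 22.4% were not whole (tolerance 0.01). All 32 members had coordinates equal to GENCODE M21 once 1 base was taken off the given end.

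Estimated counts were rounded and filtered with filterByExpr (minimum count 10), which left 14896 genes, and fitted with edgeR 4.0.16 (TMM factors 0.9705 to 1.0216, quasi-likelihood F test, Benjamini-Hochberg adjustment over all tested genes, threshold 0.05). No covariate was used. The SE is the log2 fold change divided by the square root of F, and intervals use the matching t quantile. CPM per kilobase uses the union of GENCODE M21 exons. Alternatives were DESeq2 1.42.0, limma-voom (limma 3.58.1) with and without sample weights, other size factors, count filters (minimum 30, or none) and no rounding, a GC and length trend taken out (mgcv 1.9.3), and each library left out. The fit was tested on simulated data.

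The members and lists were chosen with earlier results of these data known, so no set test was made, and no p is given for a list. All members are named. From each further list up to 4 called genes in each direction were named, otherwise the gene of smallest p. Some genes named by this rule, and a list of stellate activation genes, are not reported here. Values by library are given for the 3 members of each class with the highest mean CPM and those with an unadjusted p under 0.05, and for others chosen after their values were seen. The labels describe separate animals, and p values measure the spread between them.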

Additional observations from a re-analysis of the deposited data

How the results depend on the processing

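No paired analysis was possible because the labels give no batch, litter number or pairing, although the mice were described as littermates. The HFHC libraries are numbered 1 to 3 and the Chow libraries 7 to 9, and these numbers link no libraries across the diets. None of the 31 tested members other than Spp2 was called in any of the 15 alternatives, and in 12 of them, none called, the sign of the log2 fold change differed in at least 1. The count of genes called over the whole table, 994, became 1494 with weighted limma-voom and ran from 361 (without Chow replicate 7) to 1080 (without Chow replicate 8) when a library was left out. The number of bile duct members called, 1, was 0 after adjustment for GC content and length and 0 in each fit without a library. Leaving out a library gave class medians from -0.09 to 0.00 (endothelial), -0.13 to 0.04 (stellate) and -0.35 to -0.09 (bile duct). These moved by more than the spread between libraries (1 SD) without HFHC replicate 1 for the endothelial median (-0.09) and without HFHC replicate 2 (-0.13) or Chow replicate 9 (-0.11) for the stellate median. The bile duct median, -0.24 in the reported fit, was 0.16 with the stricter count filter, under which 3 bile duct members were tested. Without Spp2 the log2 ratio of the summed level of the bile duct members, 0.30, was -0.10. In the other alternatives run, class medians and sums moved by less than that spread. Of the called genes named from the further lists, Cdh1, Tat and Cps1 were called in every fit without a library. Counts of called genes in a list differed between tools. Hepatocyte markers gave 4 with edgeR, 7 with DESeq2 and 5 with weighted limma-voom. Other bile duct markers gave 3 with edgeR, 2 with DESeq2 and unweighted limma-voom and 4 with weighted limma-voom. PDGF genes gave 1 with edgeR and 2 with DESeq2 and weighted limma-voom. Endothelial Wnt genes gave 1 with edgeR, 2 with DESeq2 and 3 with weighted limma-voom. Where no smaller set of genes or libraries accounts for a change, the cause was not tested. Bile duct members other than Spp2 and Sox9 rest on few reads, and the part of depth in their wide intervals was not tested. P values cover 3 animals per diet.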

Other observations

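Markers of other cells that a liver sample can hold gave few calls. Over all tested genes 6.67% were called in either direction, and 22.2% had an unadjusted p under 0.05. None of 14 Kupffer cell markers was called by edgeR, DESeq2 or either limma-voom fit, with 5 at an unadjusted p under 0.05, and 11 of the 14 had a log2 fold change above 0 (median 0.22). The smallest p was that of Clec4f, the Kupffer cell lectin (0.30 ± 0.10, edgeR adjusted p = 0.0987), and the summed level of the list was 525 to 630 CPM in HFHC and 475 to 560 CPM in Chow. Among 16 scavenger and Fc receptors, which include members described above, 1 rose. This was the fatty acid receptor gene Cd36, at 46.1, 111 and 56.2 CPM in HFHC and 26.9, 28.3 and 33.8 CPM in Chow (1.26 ± 0.28, edgeR adjusted p = 0.0300). It did not pass without Chow replicate 7, Chow replicate 8 or Chow replicate 9, and without HFHC replicate 2 the log2 fold change was 0.79 (edgeR adjusted p = 0.0165).

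All 8 mesothelial markers, of which Krt7 and Krt19 are also bile duct members, had a log2 fold change below 0 (median -0.31). None was called by edgeR, DESeq2 or either limma-voom fit, and 1, the uroplakin gene Upk1b, had an unadjusted p under 0.05 (-1.02 ± 0.43, edgeR adjusted p = 0.201). Their summed level overlapped between diets, at 4.45 to 11.8 CPM in HFHC and 6.71 to 12.8 CPM in Chow. No smooth muscle and portal fibroblast marker (9 tested), lymphocyte marker (6) or neutrophil marker (1) was called by edgeR, DESeq2 or either limma-voom fit, and 0 had an unadjusted p under 0.05. The smallest p in each was that of Fbln2 (0.35 ± 0.23), Cd4 (-0.37 ± 0.17) and S100a9 (-0.13 ± 0.42). Of 5 erythroid genes the globin gene Hba-a1 rose (0.37 ± 0.08, edgeR adjusted p = 0.0278). It failed in 5 leave-one-out fits, and after adjustment for GC content and length (edgeR adjusted p = 0.107).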
